A study of Olea europaea with 6 samples.

Results

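Of the 5543 olive ESTs on the array, 15 were far brighter in fruit than in leaves at both stages of the fruit. An EST is a single read from a cDNA clone, and each one was represented on the array by a probe set of 3 spots. The 15 were chosen on the log2 signal itself. The lowest of the 4 fruit arrays had to lie at least 2 above the highest of the 7 leaf arrays, and the leaf arrays had to span less than 2 among themselves. Fruit over leaf is therefore a property of the choice and is described below without a test, whereas ripe against unripe fruit and the comparisons among leaves were tested.

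The arrays held RNA of the olive (Olea europaea) cultivar Ayvalık in 6 groups: ripe fruit of October (RF), unripe fruit of July (UF), and the mature November leaves and juvenile July leaves of an on year (ON-M, ON-J) and of an off year (OFF-M, OFF-J). On and off are the years of heavy and of light crop between which olive trees alternate. The leaves came from a pair of neighbouring trees, the on-year leaves were collected in the calendar year before the off-year leaves, and both fruit stages came from a bearing tree in that later year, so that bearing year, calendar year and tree cannot be told apart in the leaves. The data comprised 1 array of ON-M, whose second array was not analysed here, and 2 of every other group. The methods call the duplicates biological replicates without stating whether they were taken from different trees, so each p-value is relative to the spread between samples, part of which may be technical.

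The olive fruit is a drupe with a thin skin, an oil-storing pulp and a woody stone around the seed. Ripening replaces the green of chloroplasts in the skin and pulp with the purple of anthocyanins, while a leaf goes on to build and keep its photosynthetic apparatus. The 15 ESTs were brighter in fruit before and after this change than in leaves of either age. In whole organs, fewer cells of a type and less RNA per cell cannot be told apart.

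The labels of the tissues were set against the study's own annotation. The 7 olive ESTs annotated with photosynthesis had a median log2 level of 5.79 in RF, 9.49 in UF, 10.10 in ON-M, 12.07 in ON-J, 11.71 in OFF-M and 11.59 in OFF-J, and 6 of the 7 were lowest in RF. FL683529_1, annotated with anthocyanin synthesis, read 15.21 and 15.05 in RF and 6.17 and 6.15 in UF, against 5.73 to 7.52 in the leaves. The 7 olive ESTs annotated with flavonoids, which include it, had a median of 14.70 in RF, 10.80 in UF, 8.21 in ON-M, 10.82 in ON-J, 10.08 in OFF-M and 9.68 in OFF-J, and 2 of them were lowest in RF. These annotations stand in tables of transcripts picked for differences between the same samples, FL683529_1 for its difference between the fruits, and so are no independent check of the labels. The median of all olive ESTs was lowest on the RF arrays, at 9.83 and 10.22, and lay between 10.66 and 11.43 on the other 9. The single random control probe set, which matches no transcript, read between 5.18 and 5.48, and the highest value of an array lay between 15.63 and 15.78.

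The functions of the 15 ESTs were not given in the sources used here. None of them is among the 541 olive ESTs that the study's tables list, part of them with an unknown function. The annotations there cover mostly transcripts that differ among leaves or strongly between the fruits. The limit on the leaf range keeps out the ESTs that differ most among leaves. All 11 lists drawn from those annotations (photosynthesis, lipids, flavonoids, terpenoids, cell wall, carbohydrates, defense and stress, hormones, proteolysis, seed and embryo, and redox) accordingly held 0 of the 15. What the accession prefix gives is the cDNA library of each clone. The fruitlet library of the cultivar Leccino (prefix FL) gave 11 of the 15, or 73.3%, against 1021 of all 5543, or 18.4%. The library from leaves and fruits (GO) gave 2, or 13.3%, against 66.9% of all olive ESTs, and the flower library (FN) gave 2, against 13.7%. Clones from young fruit thus made up a larger share of the 15 than of all olive ESTs, although the median fruit minus leaf difference of the whole fruitlet library was only 0.06, against −0.18 in GO and 0.08 in FN. Of the fruitlet ESTs, 14.7% had every fruit array above every leaf array, compared with 6.94% in GO, 9.12% in FN and 8.64% of all olive ESTs.

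**Figure D1:**
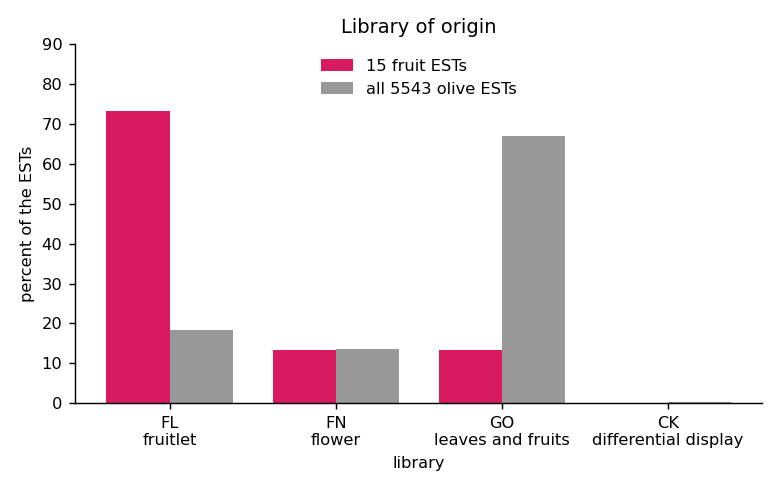
Share of the ESTs, in percent, that came from each cDNA library, for the 15 fruit ESTs and for all 5543 olive ESTs. The fruitlet library made up 73.3% of the 15 and 18.4% of all.

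On the log2 scale, the median level of the 15 was 14.46 and 14.45 on the RF arrays and 13.56 and 13.46 on the UF arrays, against 9.35 to 10.21 on the 7 leaf arrays. In RF, 14 of the 15 read above 13, and in UF 11 did, whereas none did on any leaf array. Of all olive ESTs, 23.3% to 27.8% were that bright, depending on the array. By group mean among the 5543 olive ESTs, the 15 ranked between 122 and 2049 in RF (median 503) and between 179 and 3917 in UF (median 1038), against 2980 to 5384 over the leaves (median 3409). The 15 were thus of middle to low rank in leaves, and in 14 of the 15 every leaf value still lay above the random control.

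The fruit mean exceeded the leaf mean by 3.56 to 6.08 log2 units among the 15, with a median of 4.28, or 19.4-fold. Over all olive ESTs the same difference ran between −9.36 and 7.07 with a median of −0.11. Taken by stage, RF exceeded the leaves by 3.31 to 7.29 (median 4.87) and UF by 2.79 to 6.26 (median 3.48). Against leaves of the like season, RF exceeded mature leaves by 3.79 to 7.35 (median 4.84), and UF exceeded juvenile leaves by 2.40 to 6.29 (median 3.60). The ranges cover the 14 ESTs whose leaf values lay above the random control, and the medians are over the 15, with the same value when leaf values below the random control are set to it. The lowest fruit array was one of UF in 13 ESTs and one of RF in 2, so that unripe fruit mostly set the distance to the leaves. Duplicate arrays lay close together in fruit, with a median difference over the 15 of 0.10 in RF and 0.06 in UF, and somewhat less so in leaves, with 0.27 in ON-J, 0.20 in OFF-M and 0.34 in OFF-J. Over all olive ESTs the RF arrays differed most, with a median difference of 0.32, against 0.11 in UF, 0.23 in ON-J, 0.14 in OFF-M and 0.19 in OFF-J.

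**Figure D2:**
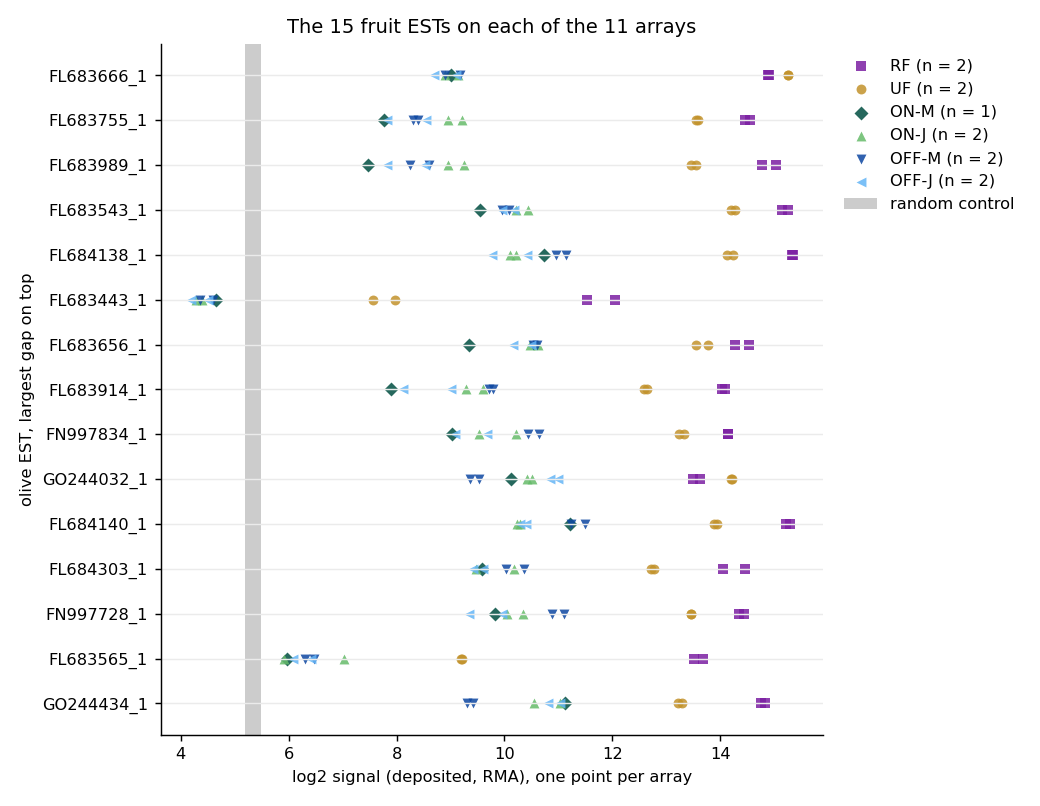
Log2 signal of the 15 ESTs on each of the 11 arrays, one point per array, with the range of the random control as a grey band. Within an EST, all fruit points lie at least 2.08 to the right of all leaf points, and only FL683443_1 has its leaf points below the band.

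FL683666_1, from the fruitlet library, had the widest distance of all 5543 olive ESTs between its lowest fruit and its highest leaf array. It read 14.89 and 14.90 in RF and 15.25 on both UF arrays, against 9.02 in ON-M, 8.89 and 9.14 in ON-J, 8.90 and 9.18 in OFF-M, and 9.11 and 8.70 in OFF-J. The distance was 5.71, the whole span of the leaves only 0.48, and the mean of the fruit was 67.7-fold that of the leaves. Fruit of either stage was near the top of the scale, and leaves of either age and year were alike within their duplicates.

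A similar distance was seen in a pair of fruitlet ESTs whose values nearly coincided. FL683755_1 read 14.46 and 14.55 in RF and 13.58 and 13.55 in UF, against 7.77 in ON-M, 8.95 and 9.22 in ON-J, 8.40 and 8.30 in OFF-M, and 8.54 and 7.82 in OFF-J. For FL683989_1 the values were 14.78 and 15.04 in RF and 13.56 and 13.46 in UF, against 7.47 in ON-M, 8.96 and 9.25 in ON-J, 8.25 and 8.59 in OFF-M, and 8.52 and 7.83 in OFF-J. In both, ON-M was the dimmest and ON-J the brightest leaf. They differed by 0.16 on average over the 11 arrays, and by 0.49 at most. Across the 7 leaf arrays their Pearson correlation was 0.96, the highest of the 105 pairs among the 15, whose median was 0.36. FL683543_1 followed FL683989_1 in leaves (0.95) at a higher level, with 15.15 and 15.25 in RF and 14.20 and 14.27 in UF, against 9.55 in ON-M, 10.21 and 10.43 in ON-J, 9.95 and 10.09 in OFF-M, and 10.18 and 9.95 in OFF-J. Such correlations describe 7 arrays on a common scale, and whether ESTs that move together derive from 1 transcript was not tested.

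FL684138_1 and FL684140_1 form another such pair, with accession numbers that differ by 2, and no ESTs of the 15 had adjacent numbers. FL684138_1 read 15.35 and 15.33 in RF and 14.24 and 14.12 in UF, against 10.74 in ON-M, 10.10 and 10.21 in ON-J, 11.14 and 10.95 in OFF-M, and 10.41 and 9.78 in OFF-J. FL684140_1 had 15.22 and 15.29 in RF and 13.89 and 13.93 in UF, against 11.21 in ON-M, 10.23 and 10.29 in ON-J, 11.23 and 11.50 in OFF-M, and 10.40 and 10.30 in OFF-J. Unlike the pair above, both read higher on each mature leaf array than on every juvenile array. Their correlation across the leaves was 0.90 and their largest difference on an array 0.55.

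The flower-library ESTs FN997834_1 and FN997728_1 were correlated at 0.94 across the leaves, and FN997834_1 also at 0.94 with FL683914_1 and at 0.91 with FL684303_1. FN997834_1 read 14.15 on both RF arrays and 13.24 and 13.32 in UF, against 9.02 in ON-M, 9.54 and 10.21 in ON-J, 10.43 and 10.64 in OFF-M, and 9.67 and 9.07 in OFF-J. For FN997728_1 the values were 14.34 and 14.45 in RF and 13.46 on both UF arrays, against 9.83 in ON-M, 10.05 and 10.35 in ON-J, 10.88 and 11.11 in OFF-M, and 9.95 and 9.35 in OFF-J. In both, the OFF-M arrays were the brightest leaves. FL683914_1 had the widest leaf range of the 15, at 1.89. It read 14.03 and 14.09 in RF and 12.64 and 12.59 in UF, against 7.90 in ON-M, 9.29 and 9.59 in ON-J, 9.72 and 9.79 in OFF-M, and 9.00 and 8.12 in OFF-J. FL684303_1 varied less, with 14.04 and 14.45 in RF and 12.78 and 12.71 in UF, against 9.58 in ON-M, 9.47 and 10.18 in ON-J, 10.03 and 10.36 in OFF-M, and 9.60 and 9.41 in OFF-J. FL683656_1, also of the fruitlet library, read 14.52 and 14.27 in RF and 13.77 and 13.54 in UF, against 9.35 in ON-M, with the other 6 leaf arrays between 10.15 and 10.63.

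Both ESTs of the library from leaves and fruits had the OFF-M arrays as their dimmest leaves. GO244032_1 read 13.63 and 13.50 in RF and 14.22 and 14.21 in UF, against 10.12 in ON-M, 10.52 and 10.41 in ON-J, 9.52 and 9.36 in OFF-M, and 10.99 and 10.84 in OFF-J. GO244434_1 read 14.83 and 14.76 in RF and 13.21 and 13.29 in UF, against 11.13 in ON-M, 10.55 and 11.02 in ON-J, 9.30 and 9.41 in OFF-M, and 11.04 and 10.81 in OFF-J. Their leaf values were correlated at 0.83, and GO244032_1 had the lowest correlation of the 105 pairs, −0.88 with FL684140_1. Of the 105 pairs 35 were negative, so that the 15 had no common course among the leaves.

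The remaining ESTs, both from the fruitlet library, were much dimmer in unripe than in ripe fruit. FL683443_1 read 11.54 and 12.06 in RF and 7.97 and 7.57 in UF, against 4.65 in ON-M, 4.28 and 4.39 in ON-J, 4.36 and 4.59 in OFF-M, and 4.50 and 4.19 in OFF-J. All 7 leaf values lay below the random control of their array, so that no level can be given to it in leaves and the size of its fruit minus leaf difference depends on the background. FL683565_1 read 13.52 and 13.68 in RF and 9.21 and 9.19 in UF, against 5.97 in ON-M, 5.91 and 7.02 in ON-J, 6.48 and 6.30 in OFF-M, and 6.41 and 6.09 in OFF-J. Its ON-J arrays differed by 1.12, the largest difference between duplicates among the 15.

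Ripe fruit was compared with unripe fruit to see whether the 15 held one level through ripening. Most did not. The signal was higher in RF than in UF in 12 ESTs and lower in 1 at an adjusted p under 0.05, whereas over all olive ESTs 20.8% were higher and 31.8% lower, and over all olive and poplar probe sets 16.8% and 16.2%. The test was limma's on all 11 arrays, with the Benjamini-Hochberg adjustment over all these probe sets. The difference had a median of 1.16 in the 15, against −0.11 in all olive ESTs, and 14 of the 15 had an unadjusted p under 0.05. The choice of the ESTs asked for every fruit array to lie a set distance above every leaf array. It asked for no difference between the stages, but it used the same RF and UF arrays. ESTs near the leaf level in either fruit stage were thereby kept out of the 15, whereas all olive ESTs include them. The shares and the median of all olive ESTs are therefore no matched background for the 15. Whether the choice favoured rises over falls was not tested.

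FL683565_1 and FL683443_1 rose most, by 4.40 (SE 0.35, adjusted p = 5.87e-05) and 4.03 (SE 0.27, adjusted p = 2.19e-05), and were the 2 of the 15 called at a difference of at least 2, which 3.73% of all olive ESTs reached. For GO244434_1 the difference was 1.54 (SE 0.23, adjusted p = 0.00196), for FL684303_1 1.5 (SE 0.29, adjusted p = 0.00589), for FL683914_1 1.45 (SE 0.30, adjusted p = 0.00741) and for FL683989_1 1.40 (SE 0.29, adjusted p = 0.00719). The pair FL684140_1 and FL684138_1 rose by 1.34 (adjusted p = 0.00209) and 1.16 (adjusted p = 0.00984). Smaller rises of 0.74 to 0.96 were called in FL683543_1, FL683755_1, FN997728_1 and FL683656_1, with adjusted p between 0.0101 and 0.0368. FN997834_1, at 0.86, missed the threshold (adjusted p = 0.0523, 95% interval 0.19 to 1.54).

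Only GO244032_1 and FL683666_1 read lower in RF than in UF on every array. GO244032_1 fell by 0.65 (SE 0.21, adjusted p = 0.0404). FL683666_1 had a difference of −0.35 that was not called (adjusted p = 0.273, 95% interval −0.89 to 0.18). Together with FL683656_1 and FN997834_1, they were the 4 ESTs with the smallest difference between stages.

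**Figure D3:**
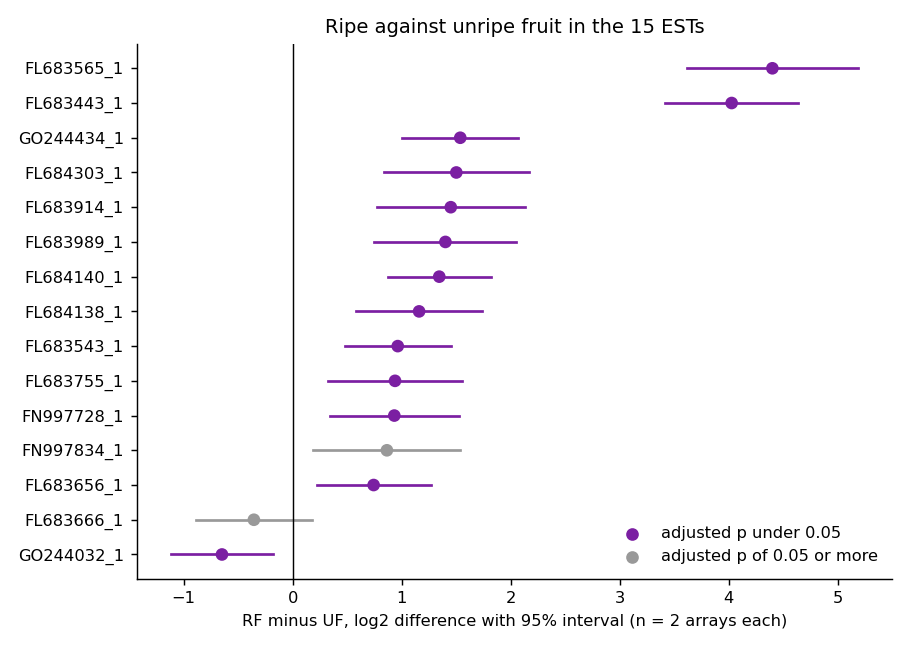
RF minus UF log2 difference of each of the 15 ESTs with its 95% interval from limma (2 arrays per stage), coloured by whether the adjusted p was under 0.05. The intervals of FL683565_1 and FL683443_1 lie above 3.41, and only GO244032_1 was called lower in RF.

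The methods' t-test put 13 higher and 2 lower in RF before adjustment, and none after it. With a log2 difference of at least 1 as well, it put 8 higher and 0 lower before adjustment. The methods ask for a fold of more than 2 on log2-based values, and the study's tables give fold changes as log2-based numbers. Their limit may therefore be a log2 difference of 2, at which limma called 2 higher and 0 lower. The limma counts depended on both UF arrays. Without UF replicate 1 the number called higher in RF was 7, without UF replicate 2 it was 5, and FL683565_1, FL683443_1, GO244434_1, FL684303_1 and FL684140_1 kept their calls in both. The call of GO244032_1 was lost without RF replicate 2, either UF array, either OFF-M array or either OFF-J array. Olive medians were lowest on the RF arrays (above), and with every array centred on its olive median 13 were higher in RF and 0 lower, the difference of GO244032_1 then being 0.36 (adjusted p = 0.298).

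Maturation of the leaf was examined in each bearing year. The choice of the ESTs bounded these differences, since no pair of leaf arrays could differ by 2. In the off year, 2 of the 15 changed between OFF-M and OFF-J, both lower in mature leaves, whereas 6.39% of all olive ESTs were called higher and 1.44% lower. They were the ESTs of the library from leaves and fruits, GO244434_1 with a difference of −1.56 (SE 0.23, adjusted p = 0.0204) and GO244032_1 with −1.47 (SE 0.21, adjusted p = 0.0154). Of the other 13, 12 read above 0 without a call. FN997728_1 came nearest, at 1.35 (adjusted p = 0.0599), followed by FL684140_1 at 1.02 (adjusted p = 0.0776), and FL683914_1 and FN997834_1 had 1.19 and 1.16 (adjusted p = 0.166 and 0.177). The median over the 15 was 0.24, against 0.11 over all olive ESTs. Both calls were lost without either UF, either OFF-M or either OFF-J array, while more were made without either RF array. With the olive probe sets alone 7 were called, and the share of all olive ESTs in that setting was not computed.

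In the on year none of the 15 was called between ON-M and ON-J by limma, with 7 at an unadjusted p under 0.05, against 5.86% of all olive ESTs called. The differences ran from −1.64 in FL683989_1 (adjusted p = 0.103) to 0.95 in FL684140_1 (adjusted p = 0.212), with a median of −0.37, against −0.20 over all olive ESTs. In 10 of the 15 the difference lay below 0. Calls were made among the 15 with the olive probe sets alone and with a prior that follows intensity. The shares of all olive ESTs called in these settings were not computed.

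**Figure D4:**
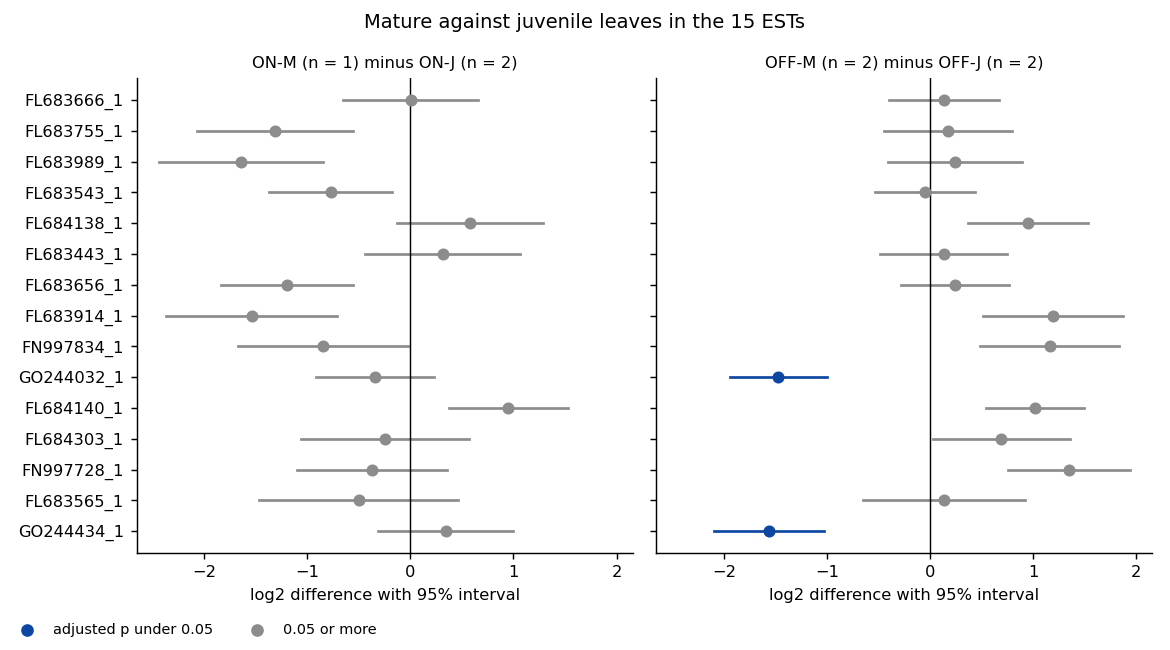
Mature minus juvenile log2 difference of each of the 15 ESTs with its 95% interval from limma, in the on year (left) and the off year (right). Only GO244032_1 and GO244434_1 in the off year had an adjusted p under 0.05, and both lie below −1.4.

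The bearing years were compared at each leaf age. The limit on the leaf range bounded these differences as well, whereas those of all olive ESTs were not bounded. Between ON-M and OFF-M no EST of the 15 was called by limma (7 at an unadjusted p under 0.05), against 1.21% of all olive ESTs. GO244434_1 had the difference with the lowest adjusted p, 1.77 (adjusted p = 0.0795), and FL683914_1 was the farthest below 0, at −1.85 (adjusted p = 0.177). In 12 of the 15 the ON-M array read below the OFF-M mean, with a median difference of −0.47, against −0.26 over all olive ESTs. Between ON-J and OFF-J limma likewise called none of the 15 (3 at an unadjusted p under 0.05), nor any other probe set (0% of all olive ESTs and of all probe sets). The difference between the maturation effects of the 2 years was not called in any of the 15 (8 at an unadjusted p under 0.05), against 1.5% of all olive ESTs. It was −2.73 in FL683914_1 (adjusted p = 0.0816) and 1.91 in GO244434_1 (adjusted p = 0.101). All comparisons with ON-M rest on the 1 array analysed here, whose spread was taken from the other groups. With the olive probe sets alone, calls were made among the 15 between ON-M and OFF-M and in the difference between years. The share of all olive ESTs called in that setting was not computed.

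Among the olive ESTs, 25 had the distance of at least 2 between fruit and leaf arrays when the leaf range was set aside, and 10 of them were left out for a leaf range of 2 or more. In all 10, the single ON-M array was the dimmest leaf array and so set the leaf range. Just inside the limit were FL683914_1 with a leaf range of 1.89, GO244434_1 with 1.83 and FL683989_1 with 1.78, and just outside it GO244409_1 with 2.09, GO246063_1 with 2.19 and GO245127_1 with 2.21. GO246063_1 had a distance of 5.65, close to that of FL683666_1, and read 14.53 and 14.69 in RF and 13.55 and 13.53 in UF, against 5.70 in ON-M and 6.64 to 7.89 on the other leaf arrays. The study's tables hold 7 of the 10, and 2 of these have a function there. GO245994_1, annotated with jasmonic acid synthesis, had a distance of 3.70 and a leaf range of 2.59. GO244028_1, annotated with fatty acid synthesis, had 4.26 and 3.09. The fruitlet library gave 11 of the 15 retained, compared with 4 of the 10 left out.

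On the distance itself, the ESTs just inside were GO244434_1 at 2.08, FL683565_1 at 2.16 and FN997728_1 at 2.35. Just outside were GO245796_1 at 1.99, and GO245795_1 and GO244965_1 at 1.97 each. Of these, GO245795_1 and GO245796_1 have adjacent accession numbers and read 13.62 and 13.40, and 13.28 and 13.32, in RF. Between 1.5 and 2 lay 14 ESTs that met the leaf limit, 8 of them from the fruitlet library, so that no break in the values separates the 15 from the rest. On the deposited values the opposite pattern was more frequent. The same rule was turned round, with every leaf array at least 2 above every fruit array and the fruit arrays within 2. It found 53 olive ESTs, a count not repeated with arrays centred on their olive medians.

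**Figure D5:**
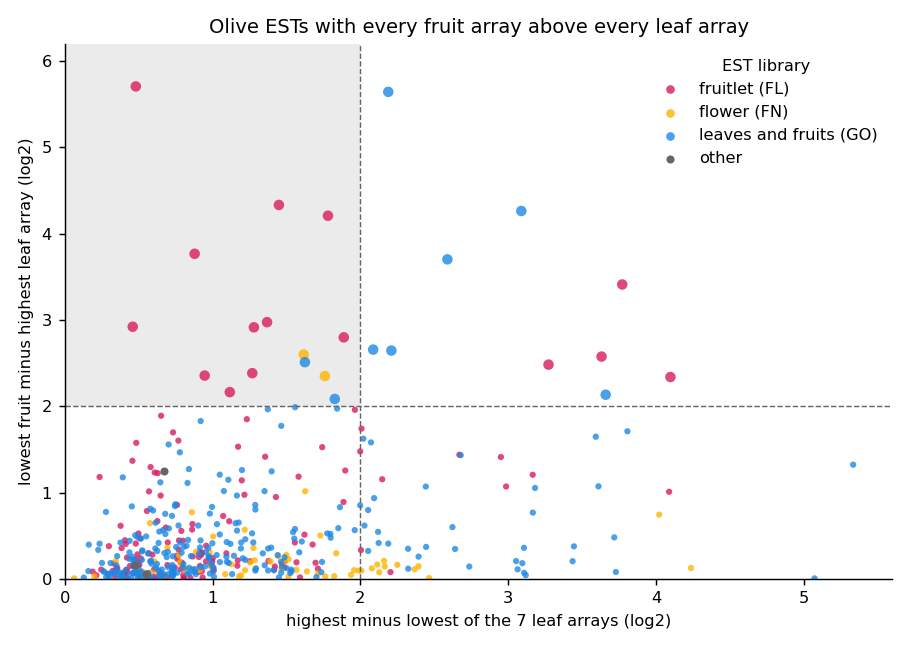
Lowest fruit minus highest leaf array against the range of the 7 leaf arrays, both in log2 units, for the olive ESTs with every fruit array above every leaf array, coloured by cDNA library, with the chosen region shaded. The shaded region holds 15 ESTs, and 10 more lie to its right at a leaf range of 2.09 or above.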

How the data were processed

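RNA of fruits and leaves was labelled with Cy3 and hybridized to a one-colour custom NimbleGen oligonucleotide array of olive ESTs and poplar gene models. Spot signals were read with DEVA by the authors, who removed background, quantile-normalized the arrays and summarized the 3 spots of an olive EST with RMA (version not given in the sources used here). They deposited 1 log2 value per EST and array. Quantile normalization forces all arrays to 1 distribution, so that a shift shared by all olive ESTs is not measured independently of the poplar probe sets.

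The deposited log2 values were used without further normalization. Groups came from the sample labels. The 1 random control was left out, which left 54615 probe sets, 5543 of them of olive. One mean per group was fitted with limma 3.58.1 in R 4.3.3 over all 11 arrays (5 residual and 3.67 prior degrees of freedom), two-sided, with Benjamini-Hochberg adjustment over all probe sets and calls at an adjusted p under 0.05. Python 3.11.15, pandas 2.3.3, numpy 2.4.6 and matplotlib 3.10.9 served for the rest. The number of arrays limits the precision.

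The 15 ESTs, the lists and the rules were chosen with earlier results of these data known. The ESTs given with full statistics were, by rule, the 6 with the widest distance, the 6 with the largest called difference between fruit stages in each direction, the 4 with the smallest, the 3 on either side of each threshold, up to 4 called in each leaf comparison, those with leaves below the random control and those with adjacent accession numbers. The remaining members were described as well.

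Alternatives were other thresholds of the choice, centring on array or olive medians, repeated quantile normalization and the authors' averaged value per sample. Others were a mean value of at least 6, olive probe sets alone, a robust prior with an intensity trend, and only the arrays compared. The methods' t-test was run with and without a log2 difference of at least 1. A minimum difference, replicate number as a block, and each array left out in turn were used as well. The gene table provided as reference matched 0 of the olive IDs, and probe or EST sequences were not used here.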

Additional observations from a re-analysis of the deposited data

How the results depend on the processing

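The choice of 15 ESTs was 15 with arrays centred on their medians, 16 with quantile normalization repeated and 10 at a distance of at least 2.5. It was 29 at 1.5, 4 at 3, 9 with a leaf range below 1.5, 25 with no leaf limit, 29 with arrays centred on their olive medians (13 shared), 25 with the averaged value of each sample, 68 with RF as the only fruit and 52 with UF as the only fruit. Leaving out each array in turn gave 15 to 23, the highest without ON-J replicate 2, followed by 21 without the ON-M array. The cause was not tested.

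For RF against UF, leaving out each array gave 5 to 13 higher and 0 to 1 lower. The methods' t-test called 0 higher and 0 lower after adjustment, and 13 and 2 without it. It called 8 and 0 without adjustment but with a log2 difference of at least 1, a setting chosen after seeing the data. Only the arrays compared gave 8 higher and 0 lower, a difference of at least 1 gave 8 and 0, and of at least 2 gave 2 and 0. Centring on olive medians gave 13 and 0, and turned GO244032_1 to 0.36.

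Between OFF-M and OFF-J, 4 were called at a mean value of at least 6, 7 with olive probe sets only and 6 with the robust prior, with 0 to 4 when each array was left out. Between ON-M and ON-J the counts were 1, 6 and 4 under the same settings, and 0 whichever other array was left out. For ON-M against OFF-M they were 1, 6 and 3, with 1 after centring on olive medians and 0 to 1 when an array was left out. For the difference between years they were 2, 9 and 7, with 1 after such centring and 0 to 2 when an array was left out. Without the ON-M array no comparison with it can be made. Between ON-J and OFF-J every setting gave 0. With olive probe sets only, fewer tests were adjusted for. The share of all olive ESTs called was computed only for the main fit and at an adjusted p under 0.05.

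A fit with replicate number as a block gave 12 higher and 1 lower in RF, 2 calls between OFF-M and OFF-J, and 0 in the other leaf comparisons, and so changed no count. The numbers follow the order in which the arrays were read and name no known pairing or batch, so this block tests neither. The deviations of same-numbered arrays were correlated between −0.05 and 0.15 over 10 pairs of groups, with 3 over 0.1.

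The number of arrays, 1 for ON-M and 2 for each other group, limits the precision, and FL683443_1 was not above the random control in leaves.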

Other observations

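Of the 49072 poplar probe sets, to which olive RNA bound across species, 3 met the same rule. The model grail3.0139000303 read 11.43 and 10.16 in RF and 11.09 and 10.65 in UF, against 6.99 to 8.12 in leaves. For gw1.XIII.1908.1 the values were 11.71 and 10.70 in RF and 11.66 and 11.56 in UF, against 7.64 to 8.23 in leaves. The model gw1.VI.1807.1 read 9.10 and 7.63 in RF and 8.63 and 8.17 in UF, against 4.63 to 5.26 in leaves, where 6 of its 7 values lay below the random control of their array. In each of the 3, RF replicate 2 was the lowest fruit array. None of them has a function in the sources used here.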
